A study of Mus musculus with 2 samples.

Results

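Of 7023 mouse cells profiled at day 16 of reprogramming, 400 were set apart by high levels of Mmp11, Dcn, Gpx3, Ptn, Sfrp4 and Cdkn1c. For each of these 6 genes the deposited log value was expressed as a z-score over all cells and the 6 z-scores were averaged. The 400 highest averages were then taken among the 6466 cells in which fewer than 3 of the 5 pluripotency genes Utf1, Tdgf1, Tdh, Nanog and Dppa4 were above 0. These 400 are referred to as the gated cells, and the remaining 6066 as the other non-pluripotent cells. The 6 genes had themselves led a cluster of the same cells, so the tests of other genes below describe the gated cells and are not independent evidence that they form a group.

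The series holds 2 droplet single-cell RNA-seq libraries of STEMCCA mouse embryonic fibroblasts (MEFs), which carry Oct4 (Pou5f1), Sox2, Klf4 and c-Myc in 1 cassette that doxycycline switches on. Both are described with the same doxycycline and ascorbic acid treatment in serum and LIF medium, and the labels put them in 1 group. There is therefore no treatment contrast, and gated cells were compared with other cells within each library. The study's text describes unsorted cells from a pair of independently made STEMCCA mouse systems, and the labels used here do not give the system or culture of each library. A difference between the libraries may therefore be one of system, culture or processing, which cannot be told apart, and the p-values measure only the spread between these samples, which may be technical.

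Fibroblasts are the connective tissue cells that secrete and remodel extracellular matrix: fibrillar collagens, the small leucine-rich proteoglycans that decorate collagen fibrils, elastic fibre proteins, and the metalloproteinases that cut them. During reprogramming this programme is silenced in the cells that move towards pluripotency, while many cells in the dish never complete the change. Among the 6 genes that chose the cells, Mmp11 (stromelysin-3) is a matrix metalloproteinase, Dcn (decorin) a small leucine-rich proteoglycan, Gpx3 a secreted glutathione peroxidase, Ptn (pleiotrophin) a heparin-binding growth factor, Sfrp4 a secreted Wnt antagonist and Cdkn1c (p57) an imprinted inhibitor of cyclin-dependent kinases.

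To show the regulatory sequence next to these genes, the 250 bases before the transcription start are given for Mmp11, which chose the cells, and for Podn and Aspn, the genes outside the 6 with the largest tested increases. RefSeq windows of the GRCm38.p6 assembly were matched for 3 of the 6 genes (Mmp11, Gpx3 and Ptn) and for 10 of the 15 genes with the largest increases. The Mmp11 window lies at chr10:75932503-75932752 on the minus strand, 1 of the 2 for Podn at chr4:108031955-108032204 on the minus strand, and that of Aspn at chr13:49544193-49544442 on the plus strand. Sequences run 5′ to 3′ along the gene, and capitals mark a GC box (GGGCGG, or CCGCCC on the other strand) or a TATA motif (TATAAA, or TTTATA on the other strand).
Mmp11: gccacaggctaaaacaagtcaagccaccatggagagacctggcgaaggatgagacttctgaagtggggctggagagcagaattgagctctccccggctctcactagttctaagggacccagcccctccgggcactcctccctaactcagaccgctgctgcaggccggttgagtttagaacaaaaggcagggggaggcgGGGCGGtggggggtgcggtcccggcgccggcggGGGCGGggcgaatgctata
Podn: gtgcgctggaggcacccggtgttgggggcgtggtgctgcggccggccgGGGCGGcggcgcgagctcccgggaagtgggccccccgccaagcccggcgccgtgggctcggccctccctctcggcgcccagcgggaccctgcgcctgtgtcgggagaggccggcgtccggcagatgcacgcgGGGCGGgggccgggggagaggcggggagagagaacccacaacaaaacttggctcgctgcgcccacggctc
Aspn: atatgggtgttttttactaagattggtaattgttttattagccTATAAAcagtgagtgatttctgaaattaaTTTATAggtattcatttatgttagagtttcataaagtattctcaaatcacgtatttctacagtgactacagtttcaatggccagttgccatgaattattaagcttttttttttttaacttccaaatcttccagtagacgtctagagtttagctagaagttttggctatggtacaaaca
The Mmp11 and Podn windows shown each hold 2 GC boxes, with 14 and 32 CpG dinucleotides and a GC content of 63.2% and 78%, against a median of 6 CpG and 52.4% over the 32851 windows of all genes. A second Podn window, chr4:108030987-108031236 on the minus strand, has no GC box, 7 CpG and 64% GC. The Aspn window differs in base content, with 30% GC, 2 CpG and 2 TATA motifs, neither of them close to the transcription start. A GC box is present in 32.7% of all windows and the TATA motif in 12.4%. Among the 14 windows found for the matched genes, 2 of them of Podn, 9 held a GC box and 1 the TATA motif. The GC box was thus more frequent than over all windows, which was not tested, but not every matched gene had it.

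The libraries held 3109 (replicate 1) and 3914 (replicate 2) cells with 4753 to 60990 UMIs (unique molecular identifiers, each standing for 1 captured transcript) per cell. There were 148 gated cells in replicate 1, or 5.02% of its non-pluripotent cells (95% exact interval 4.26 to 5.87%), and 252 in replicate 2, or 7.17% (6.33 to 8.07%). The ratio of these shares was 1.43, but it was 1.17 when z-scores were taken within each library. Gated cells were shallower than the rest, with a median of 10855 and 10071.5 UMIs in replicates 1 and 2, against 15479 and 13946 in the other non-pluripotent cells. All levels below are therefore means over cells of UMIs per 10000, given for replicate 1 and then replicate 2, and the calls, lists and comparison sets were also computed with every cell thinned to 3000 UMIs. The libraries shared 12 cell barcodes, which included 3 gated cells. Intervals and floors cover counting error only.

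The 6 genes that chose the cells are given as a description. Mmp11 was at 3.28 and 4.20 in the gated cells against 0.363 and 0.323 in the other cells, and Dcn at 4.87 and 4.41 against 0.164 and 0.187. Gpx3 was at 11.6 and 11.0 against 2.26 and 1.50. These genes were seen in most gated cells: at least 1 Dcn UMI was found in 77.7% and 70.6% of them and in 13.3% and 10.7% of the others, and after thinning to equal depth in 49.3% and 52.0% against 3.96% and 4.01%. Ptn was at 7.26 and 7.78 against 1.00 and 1.19, and Cdkn1c at 5.49 and 6.48 against 0.526 and 0.616. Sfrp4, at 0.465 and 1.78 against 0.0340 and 0.0656, was found in only 21.6% and 41.7% of gated cells, fewer in replicate 1 than in replicate 2. When a gene was left out of the score and the 400 cells were chosen by the other 5, its ratio between the chosen and the other cells ranged from 4.11 to 9.97 in replicate 1 and from 4.72 to 7.63 in replicate 2, and 319 to 354 of the 400 cells were kept. Since the 6 genes led 1 cluster together, this describes how far they go together and is no support for the group. The separation of the 6 genes, and of the genes with the largest tested differences, is shown in the plot of levels by library.

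**Figure D1:**
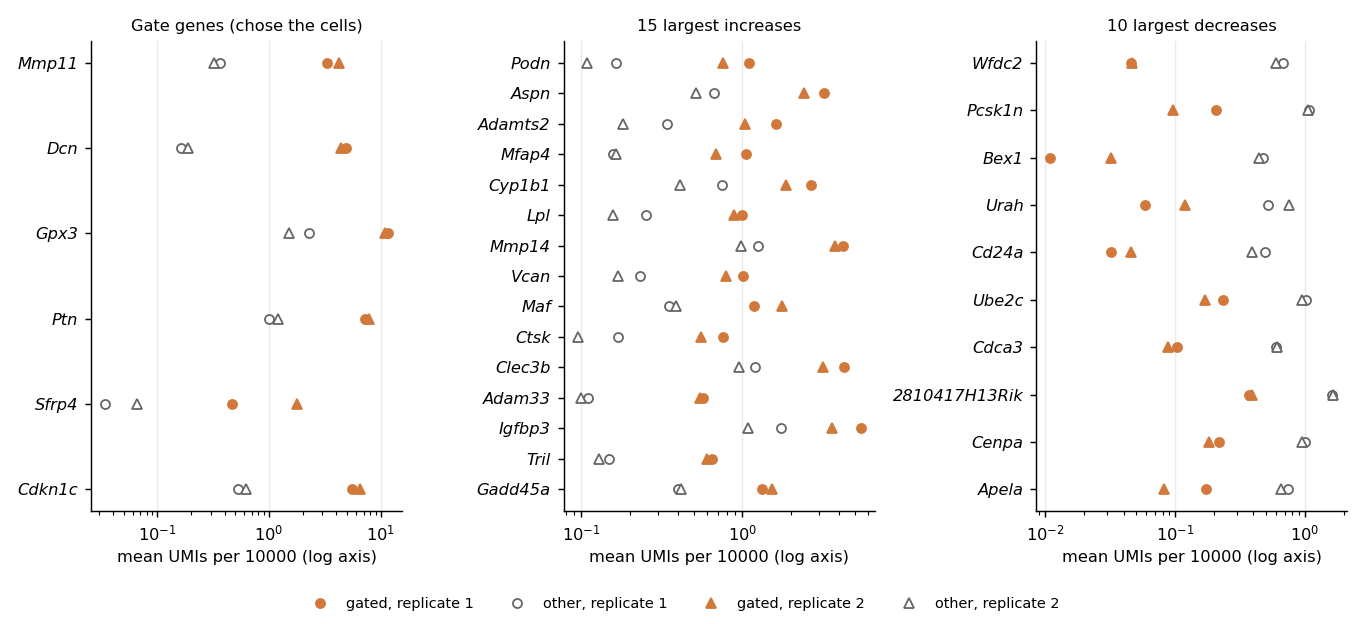
Mean UMIs per 10000 (log axis) of the 6 genes that chose the cells, the 15 genes with the largest tested increases and the 10 with the largest decreases, in gated cells (filled) and other non-pluripotent cells (open) of replicate 1 (circles) and replicate 2 (triangles). For every gene plotted, both libraries' gated values lie on the same side of both libraries' other values. The 6 genes chose the cells and the others were chosen for large folds in both libraries, so this separation is no independent result.

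The score had no gap at the limit of the gate. It fell from 5.48 in the highest cell to 2.07 at rank 100 and 1.56 at rank 200, was 1.104 at rank 400 and 1.102 at rank 401, and had a median of -0.156 over the non-pluripotent cells. Within 0.1 of the limit lay 54 gated and 52 other cells, and within 0.25 there were 110 and 181. All 6 genes were above 0 in 35 gated cells, 5 in 142, 4 in 160, 3 in 60 and 2 in 3 cells, while 57 cells outside the gate also had 5 or 6 of them. By this score the gated cells are thus the upper end of a continuous range, as the distribution of the score shows. Since many gated cells lacked UMIs of some of the 6 genes, the score cannot tell whether a separate class lies within that range.

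**Figure D2:**
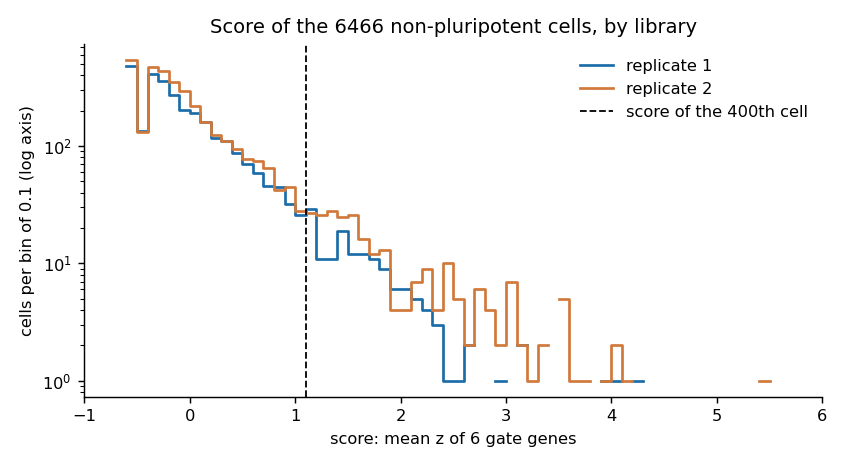
Number of non-pluripotent cells (log axis) in bins of 0.1 of the score, the mean z-score of the 6 genes, for replicate 1 and replicate 2. The dashed line marks the 400th cell at 1.104, and the counts fall without a break on both sides of it.

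To describe the gated cells beyond the 6 genes, the mean profiles of gated and other non-pluripotent cells in both libraries were compared with limma, with the library as a block, for the 7080 genes whose mean reached 0.1 UMIs per 10000. At an adjusted p under 0.05, 2642 genes differed (37.3% of those tested), 1658 higher in gated cells (23.4%) and 984 lower (13.9%). The median log2 fold over all genes tested was 0.07. A 2-fold difference was found for 256 genes (3.62%). Of the genes called, 156 (2.2%) were at least 2-fold higher and 99 (1.4%) at least 2-fold lower. All 2642 differed in the same direction in both libraries. With 1 profile per class and library, this fit could not call a gene whose folds had opposite signs. That agreement is therefore no separate check of the calls. The smallest absolute log2 fold that was called was 0.28, so many calls are small differences between large groups of cells. The calls also rest on the spread estimated over expressed genes: without the filter on low values, limma called 0 of 17155 genes, while 4832 had an unadjusted p under 0.05.

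The largest increases were led by matrix proteins and the enzymes that act on them. Podn (podocan), a small leucine-rich proteoglycan, was at 1.10 and 0.755 in gated cells against 0.164 and 0.108 in the others (log2 fold 2.11, SE 0.09). Aspn (asporin), of the same family, was at 3.20 and 2.40 against 0.664 and 0.517 (log2 fold 2.06, SE 0.09). Adamts2, the proteinase that removes the amino-terminal propeptide of fibrillar procollagens, was at 1.62 and 1.03 against 0.340 and 0.180 (1.99, SE 0.09). In limma each of these 3 had an adjusted p of 0.000266. Their gated and other values did not overlap between libraries, which the choice of genes by large folds in both favours. Mfap4, an elastic fibre protein, was at 1.05 and 0.686 against 0.156 and 0.164 (1.87, SE 0.15). The membrane metalloproteinase Mmp14, which activates Mmp2, was at 4.22 and 3.73 against 1.25 and 0.976 (1.75, SE 0.10). Vcan (versican), a large proteoglycan, was at 1.00 and 0.792 against 0.231 and 0.169 (1.73, SE 0.09).

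The other 9 of the 15 largest increases belong to varied classes. Ctsk (1.70), a collagen-degrading cathepsin, and Adam33 (1.68), a membrane metalloproteinase, are also proteinases. Clec3b, or tetranectin, was at 4.26 and 3.15 against 1.19 and 0.952 (log2 fold 1.69, SE 0.09). Igfbp3, which binds insulin-like growth factors, was at 5.43 and 3.58 against 1.73 and 1.09 (1.61, SE 0.09). The remaining 5 were Cyp1b1 (log2 fold 1.82), a cytochrome P450 enzyme, Lpl (1.79), lipoprotein lipase, the transcription factor Maf (1.73), Tril (1.60), a Toll-like receptor accessory protein, and the stress gene Gadd45a (1.59). Maf and Gadd45a were higher in replicate 2 than in replicate 1 among the gated cells, whereas the other 13 were higher in replicate 1. In each of the 15 the difference between gated and other cells exceeded that between libraries. The 15 were chosen for large folds in both libraries, which favours this.

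The small leucine-rich proteoglycans moved together. All 6 members tested rose, with a median log2 fold of 1.21 beside 0.07 over all genes, and their summed level was 45.1 and 37.9 in gated cells against 20.9 and 16.1. Beside Podn and Aspn these were Ogn (osteoglycin, 1.29), Bgn (biglycan, 1.14), Prelp (0.88) and Fmod (fibromodulin, 0.51). Bgn, close in sequence to decorin, was at 32.5 and 28.4 against 15.4 and 12.3 (adjusted p = 0.000521, limma). Dcn belongs to the same family but chose the cells and was not counted.

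Of the collagen chains, 15 of 18 tested rose and 2 fell (median 0.89), with summed levels of 72.5 and 51.0 against 41.5 and 23.9. Col3a1, a fibrillar chain of soft connective tissue, was at 8.01 and 7.04 in gated cells against 4.01 and 2.21 (limma, log2 fold 1.30, SE 0.16, adjusted p = 0.00177). Col1a1, the main chain of type I collagen, was at 11.2 and 7.34 against 7.04 and 3.39 (0.88, SE 0.12, adjusted p = 0.00301). The chains that fell are those of cartilage, Col2a1 (log2 fold -0.59) and Col10a1. Col10a1 had no UMI in any gated cell, against 0.249 and 0.0639 in the others. Against the limit that a count of 0 allows (3 UMIs per library, 0.0174 and 0.0107 per 10000) it was at least 14.3-fold and 5.97-fold lower, and the median of the list was 0.89 also with this bound in place of its fitted value.

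Elastic fibre and matricellular proteins rose in 21 of 24 tested members and fell in none (median 0.98). After Mfap4 these were led by Thbs2 (1.56), Mfap5 (1.48), Postn (periostin, 1.45), Fbln2 (1.37) and the lysyl oxidase Loxl1 (1.33). Of the matrix metalloproteinases and their inhibitors outside the gate, 6 of 8 rose and none fell (median 1.06). Mmp2, a gelatinase, was at 3.18 and 2.44 against 1.03 and 0.860 (log2 fold 1.47), and its inhibitor Timp3 was at 10.6 and 8.05 against 4.01 and 3.06 (1.37). Timp1 did not pass, at 5.84 and 5.39 against 6.07 and 5.99, nor did Mmp3. Mmp13 passed (log2 fold 1.11), but it was the opposite, -1.34, when gated cells were instead those with at least 5 of the 6 genes above 0, so no direction is read from it. Neither list as a whole stood higher in gated cells than in the Spp1 and Mylk sets described below. The elastic fibre and matricellular genes had median log2 folds of -0.03 and -0.40 against these sets, and the metalloproteinases and inhibitors -0.23 and -0.17.

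To check the name fibroblast-like, the marker lists were counted. Of 12 fibroblast markers tested 10 rose and none fell (median 0.82), including Postn, Col3a1, Fbln1 (1.24), Pdgfrb (1.14) and Fn1 (fibronectin), at 10.6 and 10.1 against 5.54 and 3.89 (1.13, SE 0.12). None of the 16 listed markers was at 0 in gated cells. Vim did not pass, at 13.9 and 13.7 against 16.0 and 14.6, nor did S100a4, and Pdgfra, Lum, Twist2 and Dpt were under the level filter. Of 9 markers of adventitial fibroblasts, the type found around vessels, 7 rose and 1 fell (median 1.01): Clec3b, Mfap5, Gsn (1.23) and Igfbp6 (1.02) were the largest, Cd34 rose by 0.73, and Pcolce2 fell (-0.61). Read over single cells, the summed fibroblast markers had a median of 71.1 and 56.5 in gated cells against 37.2 and 27.1. The share of genes higher over all tested (23.4%) is the background for these counts, which are drawn side by side for 17 lists.

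**Figure D3:**
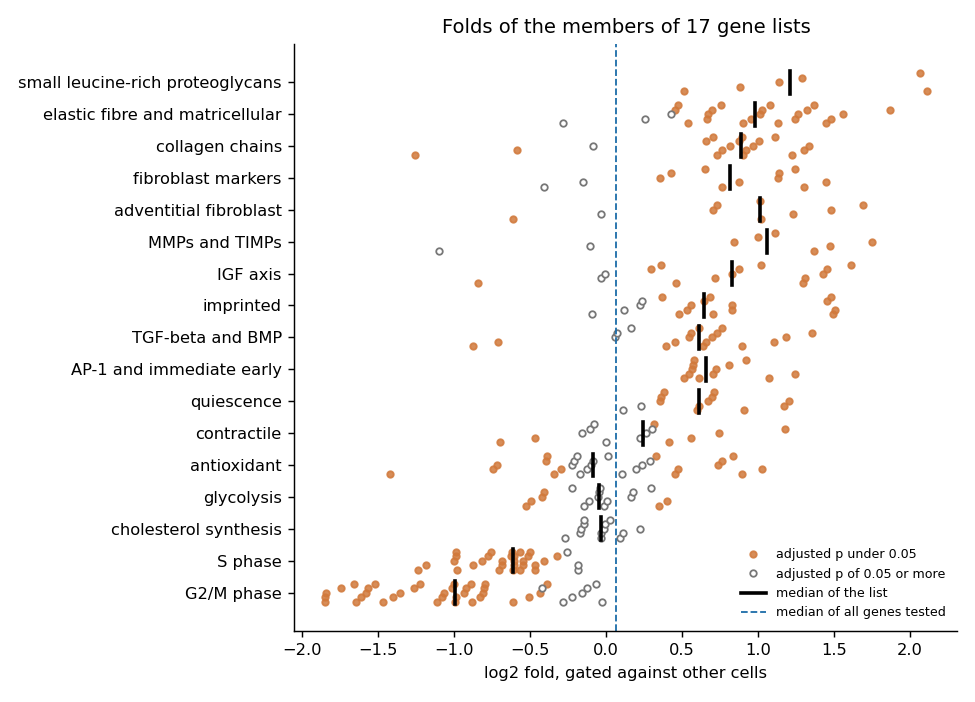
Log2 fold between gated and other non-pluripotent cells for each tested member of 17 gene lists (filled, adjusted p under 0.05 in limma), with the median of each list (black bar) and of all 7080 genes (dashed, 0.07). The medians of the matrix lists lie to the right of that line, the S phase and G2/M lists (medians -0.61 and -0.99) to the left.

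Markers of other cell types differed by type. Of the macrophage markers only Lyz2 passed the level filter, and its mean was lower (log2 fold -1.10). It was nevertheless found in more of the gated cells (2.70% and 4.37%) than of the others (1.29% and 1.53%). At least 2 UMIs of 7 macrophage genes were held by 7 of 2801 and 10 of 3265 other cells, and by 0 of 148 and 252 gated cells. Such cells were too rare for the 0 to tell gated from other cells. C1qa and Ptprc were at 0 in gated cells, and the summed macrophage markers were 0.0438 and 0.128 against 0.397 and 0.822 in the other cells. The endothelial genes Cdh5, Kdr, Tie1 and Cldn5 were at 0, as were the neural genes Sox10, Dcx and Gfap, while of 3 neural markers tested Ncam1 (log2 fold 1.40) and Stmn2 (0.59) rose. Of 3 epithelial markers tested Krt19 and Epcam fell. The summed neural markers were 3.36 and 2.53 in gated cells against 1.65 and 1.17. Over single cells, the median of the summed macrophage, epithelial and endothelial markers was 0 in both libraries, in the gated cells and in the others alike. These medians thus do not set the gated cells apart, and the mean endothelial sums were close, at 0.236 and 0.215 against 0.257 and 0.245. The median of the neural markers was 2.26 and 1.63 in gated cells, against 0.688 and 0 in the others. The part of these cell types in the results was not tested. Contractile genes were on average expressed about as in the other cells, with sums of 62.7 and 41.3 against 61.7 and 41.1. The sums were lower in the cells with the highest scores, at 45.6 and 27.2 at ranks 1 to 100 and 73.9 and 56.4 at ranks 401 to 800. Of the contractile genes, 5 of 14 rose and 2 fell (median 0.24), and Acta2, smooth muscle actin, did not pass at 18.0 and 10.4 against 18.7 and 11.7.

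For the bone, cartilage and fat lineages few markers were expressed. Both osteoblast markers tested, Spp1 and Runx2 (0.47), passed as higher, but Spp1 (osteopontin), at 12.2 and 16.0 against 8.75 and 4.95 (limma, log2 fold 1.07, SE 0.25, adjusted p = 0.0192), was found in a smaller share of gated cells (26.4% and 26.6%) than of the others (37.8% and 30.2%). Its fold turned to -0.87 with cells that had at least 5 of the 6 genes and to -0.12 when cells with any of the 5 pluripotency genes were left out. Of the 2 cartilage markers tested none rose and 1 fell, and of the 2 fat markers Lpl rose.

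Sfrp4 is a Wnt antagonist, and the other members of that class were counted. Of 5 tested, 4 rose and none fell (median 0.83). Sfrp1, which binds Wnt proteins as Sfrp4 does, was at 13.0 and 9.87 against 5.30 and 3.65 (limma, log2 fold 1.35, SE 0.09, adjusted p = 0.000368). Dkk2 (0.94), Sfrp2 (0.83) and Dkk3 (0.49) were the others. Wnt ligands and receptors were higher as well, in 4 of 4 tested: Fzd2 (1.03), Fzd1, Lrp6 and Ryk. The only Wnt target tested, Ccnd1 (cyclin D1), fell from 1.81 and 1.68 in the other cells to 1.20 and 1.15 (-0.54).

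Cdkn1c is imprinted, that is, expressed from the copy of 1 parent, and 13 of 17 other imprinted genes tested rose and none fell (median 0.64). H19, a non-coding RNA, was at 10.8 and 10.8 against 3.97 and 3.57 (limma, log2 fold 1.49, SE 0.09, adjusted p = 0.00032). Igf2, the growth factor gene next to H19, was at 0.732 and 0.883 against 0.234 and 0.225 (1.46, SE 0.11). Peg3 was at 0.675 and 0.686 against 0.182 and 0.168 (1.51), and Dlk1, a Notch-like membrane protein, at 0.255 and 0.963 against 0.0711 and 0.183 (1.48, SE 0.19). Meg3, in the same cluster as Dlk1, was far higher in replicate 1, at 42.1 and 17.1 against 21.8 and 10.4 (0.83). Gnas, Snrpn, Kcnq1ot1 and Mirg did not pass.

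Growth factor pathways were counted next. Of 15 genes of the insulin-like growth factor system 12 rose and 1 fell (median 0.83), with Igfbp7 at 9.55 and 7.12 against 3.79 and 2.37 (log2 fold 1.43), Igf1 (1.31), the Igfbp-cutting proteinase Pappa (1.30) and, in the other direction, Igfbp2 (-0.84). Of 19 genes of TGF-beta and BMP signalling 14 rose and 2 fell (median 0.61). The receptors Tgfbr2 (1.35) and Tgfbr3 (1.19) were highest, and the BMP targets Id1 (-0.88) and Id2 (-0.71) fell. Of 10 genes of the pleiotrophin axis 5 rose and 1 fell (median 0.36). Its receptor Lrp1 was at 4.29 and 3.36 against 1.81 and 1.43 (1.19), the related factor Mdk rose (0.67) and Ncl fell (-0.56).

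The lists with the most members lower were those of proliferation. Of 41 genes of G2 and mitosis 34 fell and none rose (median -0.99), and of 32 genes of S phase 29 fell and none rose (median -0.61), beside 13.9% lower over all genes tested. Top2a, the topoisomerase that untangles replicated DNA, was at 0.543 and 0.336 against 1.73 and 1.42 (limma, log2 fold -1.66, SE 0.11, adjusted p = 0.00032). Mki67, a marker of cycling cells, was at 0.195 and 0.149 against 0.674 and 0.624 (-1.47, SE 0.09). At equal depth of 3000 UMIs, 15.5% and 7.54% of gated cells had at least 5 UMIs of the G2 and mitosis list, against 34.7% and 32.0% of the others. For the S phase list these shares were 6.76% and 5.95% against 26.0% and 24.9%. The Spp1, Mmp13 and Col10a1 set described below was close to the gated cells in this, with 13.5% and 11.1% of cells for G2 and mitosis. Of 24 S phase and 26 G2 and mitosis genes tested against it, 1 of each list was higher in gated cells and none lower. These counts are near the background, as 3.61% of all genes were higher and 2.34% lower against that set. Against the Mylk, Thbs1 and Itga11 set, 7 of the 26 G2 and mitosis genes were lower (26.9%) and none of the 24 S phase genes, beside 3.67% over all genes. Of 14 genes of cell cycle arrest 7 rose and 2 fell (median 0.29): Cdkn2b (1.05), Trp53inp1 (0.84), Cdkn2a (0.68) and Cdkn1a (p21, 0.58) were the highest, and of these Trp53inp1, Cdkn2a and Cdkn1a no longer passed in cells with at least 5 of the 6 genes. Of 13 quiescence genes 11 rose and none fell (median 0.61), led by Txnip (1.20) and Gas1 (1.17).

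Because cells with low cell-cycle transcripts were more common among the gated cells, the comparison was repeated in the cells at or below the median for these genes, which were 64.2% and 74.6% of gated cells and 46.8% and 50.2% of the others. There 1028 genes passed, with 10.9% of genes higher and 3.98% lower. Among the matrix lists, 6 of 7 small leucine-rich proteoglycans (median 0.99), 11 of 19 collagen chains (median 0.56, with 2 lower), 15 of 24 elastic fibre and matricellular genes (0.69) were higher. Of the other lists, 9 of 17 imprinted genes (0.52) and 5 of 13 quiescence genes (0.38) were higher, and 2 contractile genes were higher and 3 lower (0.02). Of the cell-cycle genes that were left to test, 2 of 12 for S phase and 1 of 12 for G2 and mitosis were lower, which follows from how these cells were taken.

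Early response genes were higher as a group, with all 12 AP-1 and related genes tested rising (median 0.66). Ier2 (1.24), Junb (1.07) and Fos were the largest. Fos was at 2.06 and 4.09 against 1.09 and 2.02 (log2 fold 0.92, SE 0.09), so its level was higher in replicate 2 in both kinds of cells. Antioxidant genes, the class of Gpx3, split evenly, with 8 of 27 up and 7 down (median -0.09). The selenium carrier Sepp1 (1.03) and Gpx8 (0.90) rose, and Gsta4, a glutathione transferase, fell to 1.23 and 0.948 from 3.20 and 2.92 (-1.42). Of 9 complement genes 6 rose and 1 fell, with C3 at 0.240 and 0.751 against 0.122 and 0.117 (1.29, SE 0.28), and of 5 inflammatory genes the chemokine Cxcl12 (1.34) and 1 other rose, and Ccl7 (-0.84) fell. Of 9 interferon genes 5 rose (median 0.32). Glycolysis (2 up and 4 down of 17, median -0.05) and cholesterol synthesis (none of 13 either way, median -0.03) gave no shared direction.

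Among transcription factors of mesenchyme 13 of 22 rose and 2 fell (median 0.45). Ebf1 was at 3.12 and 2.45 against 1.33 and 1.01 (log2 fold 1.18), followed by Meis1 (0.92) and Meis2 (0.79). Of 11 Hox genes 6 rose and 1 fell: Hoxb4 (1.06), Hoxc9 (1.04) and Hoxc8 (1.00) were highest and Hoxd11 (-0.99) fell. Of 3 reprogramming factors tested, Klf4 rose, at 0.583 and 0.454 against 0.198 and 0.171 (1.12), Myc fell (-0.53) and Pou5f1 did not pass. These are counts near the 3′ end of transcripts and do not tell the cassette from the cell's own genes. Of 5 other pluripotency genes none rose and 4 fell, L1td1 the most (-1.73). Xist did not pass, at 6.22 and 5.79 against 4.70 and 5.10.

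The genes that fell most, outside the cell cycle, included secreted and surface proteins. Wfdc2, a secreted protein of epithelia, was at 0.0459 and 0.0464 against 0.681 and 0.594 (log2 fold -2.33, SE 0.10). Pcsk1n, an inhibitor of a prohormone convertase, was at 0.207 and 0.0967 against 1.07 and 1.06 (-2.24, SE 0.15). Bex1 was at 0.0109 and 0.0321 against 0.477 and 0.444 (-2.21, SE 0.11). Cd24a, a surface protein of epithelial and reprogramming cells, was at 0.0321 and 0.0455 against 0.490 and 0.389 (-1.95, SE 0.12). Apela, a secreted peptide of pluripotent cells, was at 0.173 and 0.0819 against 0.738 and 0.649 (-1.83, SE 0.12). In limma the adjusted p of these 5 lay between 0.000266 and 0.000368. All 5 were also below the other cells in the Spp1 and Mylk sets described below, so their low level was not particular to the gated cells. Pcsk1n was at 0.155 and 0.0799 in the Spp1 set and 0.0281 and 0.0413 in the Mylk set. Wfdc2 was at 0.120 and 0.383 in the Spp1 set, above the gated cells, and 0.0673 and 0.0888 in the Mylk set. The other 5 of the 10 largest decreases were Urah (-1.96) and the proliferation genes Ube2c, Cdca3, 2810417H13Rik and Cenpa.

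To see which genes followed the score and which marked a wider set of cells, levels were read along the rank of the score, as a description. H19 fell from 19.4 and 12.1 at ranks 1 to 100 to 5.78 and 6.95 at ranks 301 to 400, and was 4.26 and 5.17 at ranks 401 to 800. Igf2 was 1.75 and 0.798, then 0.489 and 0.528, then 0.225 and 0.412 over the same bins. Both were lower at the limit of the gate than at its top. Col1a1 showed no common decline in the gate: it was 12.2 and 5.42 at ranks 1 to 100, 11.6 and 8.37 at ranks 301 to 400, and 11.7 and 7.38 at ranks 401 to 800, and was lower at ranks 1601 to 3200, at 9.13 and 3.88, and in the last bin, at 4.40 and 1.83. The summed collagen chains were likewise 68.4 and 49.2 at ranks 401 to 800, near the 74.2 and 52.5 of ranks 301 to 400. The Col1a1 level and the summed collagen level of the gate were thus shared with cells just outside it, whereas H19 was lower there than in any bin of gated cells. Col3a1 differed from Col1a1, at 12.2 and 7.49 at ranks 1 to 100, 6.55 and 5.92 at ranks 301 to 400, and 6.73 and 5.04 at ranks 401 to 800. Ranks 1 to 100 held 26 cells of replicate 1 and 74 of replicate 2.

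**Figure D4:**
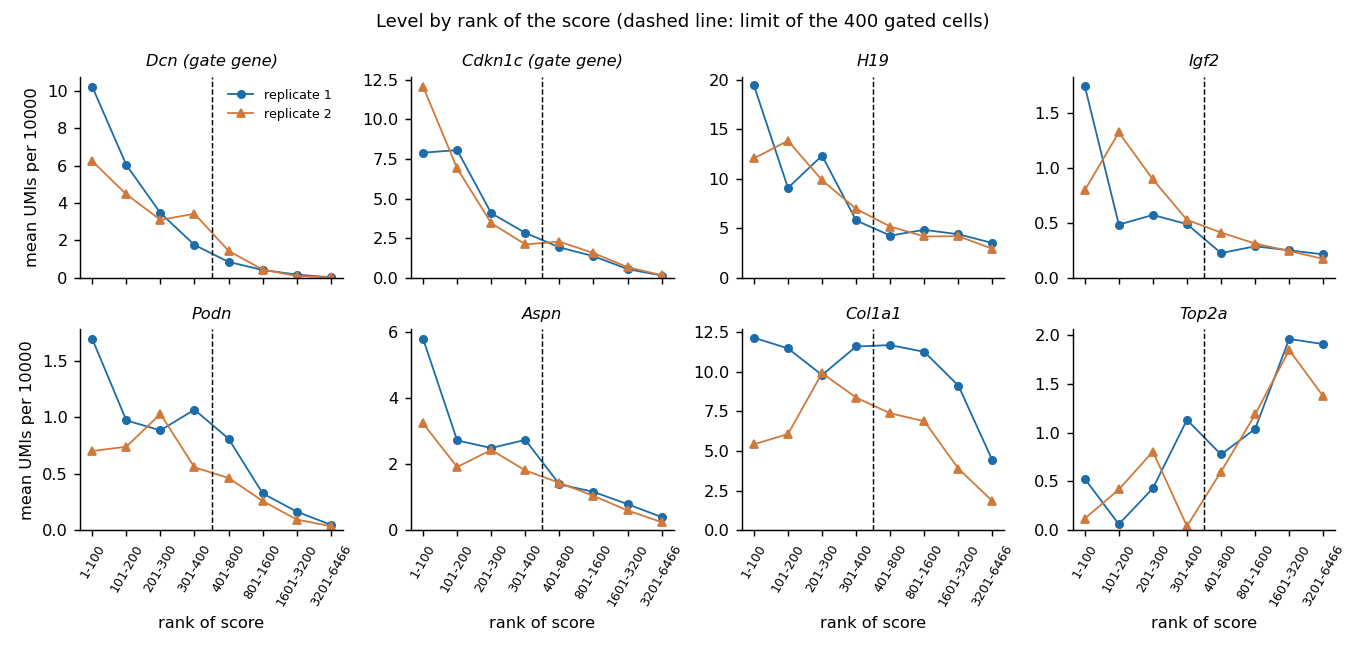
Mean UMIs per 10000 of 8 genes in bins of the rank of the score, replicate 1 (circles) and replicate 2 (triangles), with the limit of the 400 gated cells dashed. H19 and Igf2 are higher in the first bin than at ranks 401 to 800 in both libraries, as are Dcn and Cdkn1c, which chose the cells, while Col1a1 at ranks 401 to 800 (11.7 and 7.38) is near its level at ranks 301 to 400.

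To place the gated cells among other fibroblast-like cells, 2 further sets were chosen in the same way from the non-pluripotent cells, by Spp1, Mmp13 and Col10a1 and by Mylk, Thbs1 and Itga11. Of the 400 highest of each, 31 and 38 were gated cells and were left out, and cells in both sets were given to the set in which they ranked higher, which left 346 and 338 cells. The genes that chose any set were left out of the tests. Both comparisons use the same profiles of gated cells. The summed fibroblast markers were 131 and 86.4 in the Spp1 set and 132 and 122 in the Mylk set, against 78.7 and 63.2 in the gated cells, so the gated cells stood above the average cell but not above these sets. The summed small leucine-rich proteoglycans were similar in all 3, at 40.1 and 33.6 (Spp1), 42.2 and 42.4 (Mylk) and 45.1 and 37.9 (gated). Of 7 tested, 3 were higher and 0 lower against the Spp1 set, and 1 was higher and 1 lower against the Mylk set. Podn was higher than in either set, and Aspn passed against neither (limma, adjusted p = 0.355 and 0.964).

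Against the Spp1 set 440 of 7391 genes differed (5.95%), 267 higher in gated cells (3.61%) and 173 lower (2.34%). Gated cells had more Pappa, at 1.11 and 0.388 against 0.0335 and 0.0586 (limma, log2 fold 2.40, SE 0.31, adjusted p = 0.00664), more Ncam1 (2.40), Cyp1b1 (2.34), Egfl6 (2.26) and Tril (2.18). They also had more Sfrp1 (1.88), at 13.0 and 9.87 against 3.36 and 2.70, and more Hoxc8 (1.79) and Peg3 (1.78). Mmp3, stromelysin-1, was at 0.0139 and 0.238 in gated cells against 4.54 and 5.18 (-4.66, SE 0.32, adjusted p = 0.00077), the largest difference. By list, 6 Hox genes were higher and 1 lower (median 0.77), 6 imprinted genes higher and 1 lower (0.53), while 2 collagen chains were higher and 5 lower. The next 4 decreases, Lyz2, Pf4, C1qa and C1qb, are macrophage genes, and C1qa, with no UMI in gated cells, was at 0.519 and 0.874 in the Spp1 set, at least 29.8-fold and 81.7-fold higher there. They came from 5 cells of that set, 1 in replicate 1 and 4 in replicate 2, with at least 2 UMIs of such genes. Without those cells the 4 genes were under the level filter and 440 genes were still called.

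Against the Mylk set 517 genes differed (6.99%), 246 higher in gated cells (3.33%) and 271 lower (3.67%). Higher in the gated cells were Clec3b, at 4.26 and 3.15 against 0.571 and 0.273 (limma, log2 fold 2.91, SE 0.24, adjusted p = 0.00286), the chemokine Ccl8 (2.59), the lipid carrier Apod (2.52), at 6.57 and 5.44 against 1.19 and 0.772, Chchd10 (2.50) and Ifitm1 (2.14). All 12 contractile genes tested were lower (median -1.29): Acta2 was at 18.0 and 10.4 in gated cells and at 43.6 and 34.2 in the Mylk set (-1.49, SE 0.17). Collagen chains were lower in 13 of 21 and higher in none (median -0.62), with Col1a1 at 28.6 and 27.0 in the Mylk set (-1.61). The largest decreases were Sprr2k (-3.53), Igfbp2 (-2.83), at 0.812 and 0.681 against 6.67 and 5.23, Cnn1 (-2.52), a contractile protein, Cthrc1 (-2.19) and Ankrd1 (-2.10). Sprr2k was at 0 and 0.0246 in gated cells (0 and 8 UMIs) against 0.759 and 1.85 in the Mylk set. It reached the level filter only through the Mylk set, and its fold depends on the 0.1 added before the log. Cd34, a surface marker of adventitial cells, was higher than in either set, at 2.68 and 2.24 against 0.475 and 0.912 (1.74) in the Spp1 set and 0.769 and 0.626 (1.68) in the Mylk set. The adventitial list as a whole was mixed. Of 10 members tested, 4 were higher and 1 lower against the Spp1 set (median 0.47). Against the Mylk set 4 were higher and 2 lower (median 0.43). With every cell thinned to 3000 UMIs only 84 genes were called against the Spp1 set and 11 against the Mylk set. Lyz2, Pf4, Tril and Ifitm1 were no longer called. All 434 and 506 earlier calls that could be tested kept their sign. The thinned counts are a subset of the same UMIs of the same cells, so the kept signs are no separate check of the calls.

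**Figure D5:**
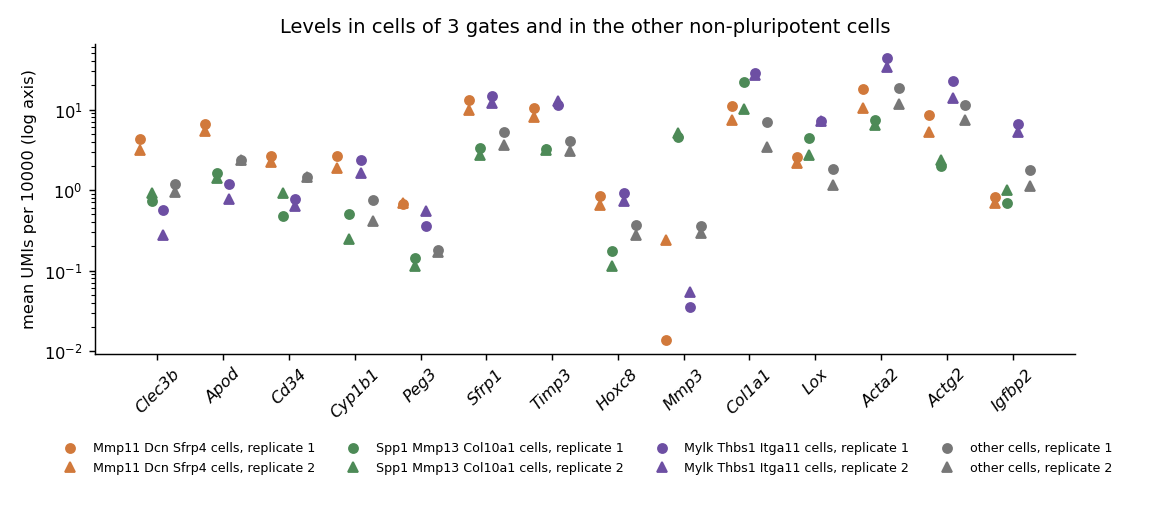
Mean UMIs per 10000 (log axis) of 14 genes in the gated cells, the Spp1 Mmp13 Col10a1 set, the Mylk Thbs1 Itga11 set and the other non-pluripotent cells, in replicate 1 (circles) and replicate 2 (triangles). Gated cells are highest for Clec3b and Cd34, the Spp1 set for Mmp3 and the Mylk set for Acta2 and Igfbp2.

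The gated cells of the libraries were not identical. Of 7394 genes 21 were at least 2-fold higher in gated cells of replicate 2 and 25 in those of replicate 1, against 1 and 15 in the other cells, with no test, since each library gives 1 value. Sfrp4, Dlk1 and C3 (above), together with Ndrg1, Bnip3, Ero1l and Mt2, were higher in replicate 2. Meg3, Pappa and the elastin gene Eln were higher in replicate 1. Some of these differences were found in all cells: Gm10709 was at 6.51 and 0.0977 in gated cells and at 8.28 and 0.137 in the others, and Rpl29 at 9.77 and 26.0 against 10.7 and 30.5. The gated cells are the smaller set, so their means also vary more by counting.

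Genes under the level filter were not tested, and 24 of them, chosen after their values were seen, were at 0.1 or more in gated cells and at least 4-fold higher than in the other cells in both libraries. Igfbp5, another binding protein of insulin-like growth factors, was at 0.828 and 0.754 against 0.0651 and 0.0184, ratios of 12.7 and 41.0, although 10.8% of gated cells of replicate 1 held any of its 142 UMIs. Nov (Ccn3), a matricellular protein, was at 0.479 and 0.218 against 0.0428 and 0.0198, and the cytokine Il33 at 0.209 and 0.187 against 0.0183 and 0.0197. Both were also above the other cells at ranks 401 to 800, and Igfbp5 was at 0.0631 and 0.0782 there. The list also held the receptor Gfra1, at 0.413 and 0.399 against 0.0465 and 0.0437, and Plac8, at 0.689 and 0.349 against 0.0586 and 0.0487.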

How the data were processed

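The libraries were made with Chromium V2 chemistry, and the submitters' processing notes name Cell Ranger 2.1.1, mm10 and Seurat. The authors filtered for cells of 1500 to 6000 genes and under 9% mitochondrial counts, and deposited the natural log of 1 plus UMIs per 10000 for 17408 genes. How doublets were treated: not given in the sources used here. None were called. From the steps of these values UMIs were recovered, 54145377 and 64654306 in replicates 1 and 2, and every recovered value was whole within 0.01. Since the deposited unit is a natural log, no count model was used.

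Gated and other cells gave 1 mean profile per library. log2(mean per 10000 + 0.1) was fitted with limma 3.58.1 (R 4.3.3), library as block, for genes whose mean reached 0.1, and p-values were adjusted by Benjamini-Hochberg over all genes tested. The 6 genes of the score and the 5 pluripotency genes were left out. The folds are on this scale and understate changes of low genes. Thinning drew 3000 UMIs per cell. On simulated data with 200 changed genes of 7080, 98% of 2-fold and 100% of 4-fold changes were recovered. There both classes were drawn as Poisson counts around 1 profile per library, with an assumed log2 spread of 0.1. That spread was not estimated from these data, so the shares do not tell how well changes in the gated cells were recovered. Python 3.11.15, numpy 2.4.6 and scipy 1.17.1 were used. Genes were named by rule: of those past the threshold and at least 2-fold apart in both libraries, the 15 largest increases and 10 largest decreases, the 5 largest each way against each other set, and up to 4 tested members with the largest fold per list. Further list members are named to describe their list. The members and lists were chosen with earlier results of these data known. 1 gene of the cholesterol list is not reported here. Promoter windows came from RefSeq.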

Additional observations from a re-analysis of the deposited data

How the results depend on the processing

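Against the other non-pluripotent cells, 1149 genes were called with a mean of at least 0.5 (2179 tested), 1604 with cells that had 5 or more of the 6 genes, 1723 after thinning, 1028 without cells above the median for cell-cycle genes, 1200 with no replicate block and 0 (limma, 4832 at an unadjusted p under 0.05) with no filter on low values. Genes at least 2-fold apart were 23 with a pseudocount of 1, 533 with 0.01, 104 at a mean of at least 0.5, 134 with 5 or more of the 6 genes and 124 without cells high for cell-cycle genes, and 259 to 286 in 1 library, where no test could be made because no residual degrees of freedom remained. Against the Spp1 set the 440 calls became 261 at a mean of at least 0.5, 84 after thinning and 247 with no replicate block, and against the Mylk set the 517 became 11, 208 with no replicate block and 864 with a trend in limma. The ratio of shares was 1.17 with z-scores within each library. Of 142 named genes these log2 folds reversed: with 5 or more of the 6 genes Mmp13 (-1.34), Spp1 (-0.87), Comp (-0.16), Fabp4 (-0.085), Nsdhl (-0.00597) and Mvk (0.18); with none of the 5 pluripotency genes Spp1 (-0.12), Comp (-0.15) and Fabp4 (-0.043); with 200 cells Comp (-0.22), Nsdhl (-0.013) and Xist (-0.021); with 800 cells Comp (-0.14) and Mvk (0.010); without cells high for cell-cycle genes Fabp4 (-0.34) and Nes (0.079). Of these only Mmp13 and Spp1 had been called. Leaving out shared barcodes, ranks 401 to 800 or macrophage-gene cells was added after seeing the data and reversed none. The causes were not tested.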
